A study of Mus musculus with 4 samples.

Results

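Parvalbumin (Pvalb), calbindin-D28k (Calb1) and calretinin (Calb2) are calcium-binding proteins of the cytosol, and their transcripts were followed in mouse brain tissue holding thalamus and hypothalamus. The 3 genes were chosen by symbol, with their values on these same arrays already known, so their levels and group differences are a description and carry no test of their own. The RefSeq accessions printed on the arrays gave 5 probes for them among 41174, 1 for Pvalb, 1 for Calb1 and 3 for Calb2. These probes took up 23 spots on each array, and all 3 genes were among the 21642 genes that passed the filter on dim probes.

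Tissue was taken at postnatal day 14. Dark-reared mice were born to dams that had been moved a few days before delivery into a cage wrapped in opaque black plastic, were handled under dim red light and stayed in the dark until sampling. Control mice lived in standard cages with a daily light and dark cycle. The labels call the 2 samples of each group biological replicates, give neither strain, sex nor number of animals, and name no genotype. Total RNA of each sample was labelled with Cy3 and measured on a one-colour Agilent array, 1 per sample. The question the comparison addresses is how expression in this tissue differs when visual input is withheld.

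All 3 proteins bind calcium through EF-hand loops and act mainly as buffers that shorten and shape calcium signals in neurons. Parvalbumin is a slow-onset buffer typical of fast-spiking inhibitory neurons, and in the thalamus it marks the reticular nucleus, the sheet of GABA neurons that inhibits relay cells. It is also abundant in fast skeletal muscle. Calbindin-D28k is a faster buffer found in Purkinje cells, in striatal projection neurons and in subsets of thalamic and hypothalamic neurons. Calretinin, its close relative, marks other neuron types, among them cells of the midline thalamus and of the hypothalamus.

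The region around the starts of the Pvalb gene is shown because Pvalb was the member whose groups did not overlap. RefSeq's table for GRCm38.p6 holds windows of 300 bases, 250 before and 50 after each annotated start, and it lists 2 starts for Pvalb. The windows lie on the minus strand, at chr15:78206351-78206650 and chr15:78204188-78204487, and are printed in the direction of transcription. Capitals mark the letters TATTTAA, a variant of the TATA box that was picked after the sequence had been read.
Pvalb upstream start: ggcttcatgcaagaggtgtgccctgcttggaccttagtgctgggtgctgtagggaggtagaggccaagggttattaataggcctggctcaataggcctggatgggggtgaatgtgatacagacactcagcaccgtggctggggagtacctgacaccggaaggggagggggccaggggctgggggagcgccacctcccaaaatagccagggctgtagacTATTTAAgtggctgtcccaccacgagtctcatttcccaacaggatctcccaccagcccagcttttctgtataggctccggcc
Pvalb downstream start: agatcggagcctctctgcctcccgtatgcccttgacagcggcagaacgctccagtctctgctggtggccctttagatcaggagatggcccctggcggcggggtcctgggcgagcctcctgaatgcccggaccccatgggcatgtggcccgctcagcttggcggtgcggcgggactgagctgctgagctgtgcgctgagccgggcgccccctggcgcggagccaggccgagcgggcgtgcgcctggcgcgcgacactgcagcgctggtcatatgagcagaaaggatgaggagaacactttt

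The windows differ in composition. The upstream one holds 5 CpG dinucleotides and 58.3% G and C, and the downstream one 25 CpG dinucleotides and 67.7% G and C, where the median over 32851 promoter windows was 7 CpG dinucleotides and 52.7%. TATTTAA begins 32 bases before the upstream start and is not in the downstream window; on either strand it is in 4.51% of all windows. The plain TATA letters TATAAA, in 13.62% of all windows, are in neither, and the E-box letters CANNTG, in 72.31%, match at 2 places in the downstream window alone. The array probe is annotated to the transcript NM_013645, and the arrays do not tell which start a transcript came from.

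Levels are given on the log2 scale, each array's 75th percentile of signal being set to 0. The dimmest signal that the scanner software placed well above background lay, by array, between 17.75 and 34.99 intensity units, and no spot was saturated. For groups of 2 and 2, the smallest p that an exact permutation test (two-sided) allows is 0.333. Dark-reared 2 and control 2 shared a slide, per the file headers, while dark-reared 1 and control 1 each had a slide of their own. Levels of tissue markers differed between the samples of a group. Thalamus and hypothalamus markers were lowest on average in dark-reared 1, and striatum markers were high in dark-reared 1 and control 2; the values stand beside the genes they move with. The Y-linked gene Ddx3y was well above background in 3 of the 4 samples, control 1 being without it, and the X-inactivation RNA Xist in dark-reared 1 and control 1, so the samples did not hold the same mix of sexes and dark-reared 1 carried RNA of both. The part of sex in the results below was not tested.

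Pvalb signal was lower in both dark-reared samples than in either control. The log2 signal of the single Pvalb probe (NM_013645) was -2.09 in dark-reared 1 and -3.37 in dark-reared 2, against 0.47 in control 1 and -1.19 in control 2. The higher dark-reared sample thus stood below the lower control. The means were -2.73 ± 0.91 in dark-reared samples and -0.36 ± 1.17 in controls (SD, n = 2 each), a log2 difference of -2.37, or 5.17-fold lower in dark-reared samples. Within the shared slide, dark-reared 2 was lower than control 2 by 4.54-fold (log2 difference -2.18).

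The Pvalb signal was modest, and its samples differed widely within a group too. In intensity units the processed signal was 186.7 in dark-reared 1 and 74.8 in dark-reared 2, against 1083.8 in control 1 and 335.1 in control 2. Each was well above background, at 8.36 and 4.21 times the lowest such signal of the array in the dark-reared samples, against 50.99 and 9.58 times in the controls. The 2 dark-reared samples differed from each other by 2.43-fold and the 2 controls by 3.16-fold. The probe was printed as 1 spot, so no repeat within an array stands behind these values. The difference depended in size on each sample: leaving out dark-reared 1 gave -3.01, dark-reared 2 gave -1.73, control 1 gave -1.54 and control 2 gave -3.20. With the background removed by the normexp method, 50 units added to each signal and quantile normalization, it was -1.70. The groups did not overlap there either. Adding units narrows the log2 differences of dim signals such as these, so the smaller size does not speak of the background alone.

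Calb1 signal differed little between the groups, and the samples of a group differed more than the groups did. The Calb1 probe (NM_009788) had log2 signals of 3.38 in dark-reared 1 and 2.70 in dark-reared 2, against 2.75 in control 1 and 3.65 in control 2. Control 2 was highest, dark-reared 1 next, and dark-reared 2 and control 1 were lowest and close together, so the groups overlapped. The mean was 3.04 ± 0.48 in dark-reared samples and 3.20 ± 0.64 in controls (SD, n = 2 each), a log2 difference of -0.16. The sign turned with the samples used: the difference was 0.18 without dark-reared 2 and 0.29 without control 2, but -0.50 without dark-reared 1, -0.61 without control 1 and -0.95 within the shared slide.

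Repeated spots showed how precisely an array measured Calb1. The probe was printed 10 times on each array, and after outlier spots had been left out 10 spots of dark-reared 1 and 9 of dark-reared 2 were used, with 8 of each control. Their SD on the log2 scale was 0.06 and 0.08 in the dark-reared samples, against 0.04 in both controls. The log2 gap between the samples of a group was 0.68 for the dark-reared pair and 0.90 for the control pair, several times wider than the spread over spots. Dark-reared 2 (2.59 to 2.85 over its spots) and control 1 (2.69 to 2.84) overlapped spot by spot. Dark-reared 1 (3.29 to 3.45) and control 2 (3.61 to 3.73) overlapped neither with these nor with each other.

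Calb2 signal was far lower in dark-reared 1 than in the other 3 samples, and the groups overlapped. The brightest Calb2 probe (NM_007586) had log2 signals of -2.0 in dark-reared 1 and 1.77 in dark-reared 2, against 1.57 in control 1 and 0.19 in control 2. The dark-reared group thus held both the lowest and the highest value, 13.7-fold apart. The mean was -0.12 ± 2.67 in dark-reared samples and 0.88 ± 0.98 in controls (SD, n = 2 each), a log2 difference of -0.99. Leaving out dark-reared 1 gave a difference of 0.89, dark-reared 2 one of -2.88, control 1 one of -0.30 and control 2 one of -1.68, and within the shared slide it was 1.58. The direction of the group difference in Calb2 therefore rested on dark-reared 1.

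The 3 Calb2 probes gave the samples in the same order, although they differ in brightness. The log2 differences were -0.99 for the brightest probe, -0.99 for the probe printed 10 times and -0.96 for the third. Within the shared slide they were 1.58, 1.58 and 1.40, all of the opposite sign. On the probe printed 10 times the spots ran from -3.46 to -2.98 in dark-reared 1 and from 0.55 to 0.78 in dark-reared 2, against 0.30 to 0.46 in control 1 and -1.0 to -0.81 in control 2. No spot of 1 sample fell into the range of another. The gap of dark-reared 1 to the other samples was thus present on every probe and every spot, and its signals there, 77.7 to 198 intensity units by probe, were still well above background.

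**Figure D1:**
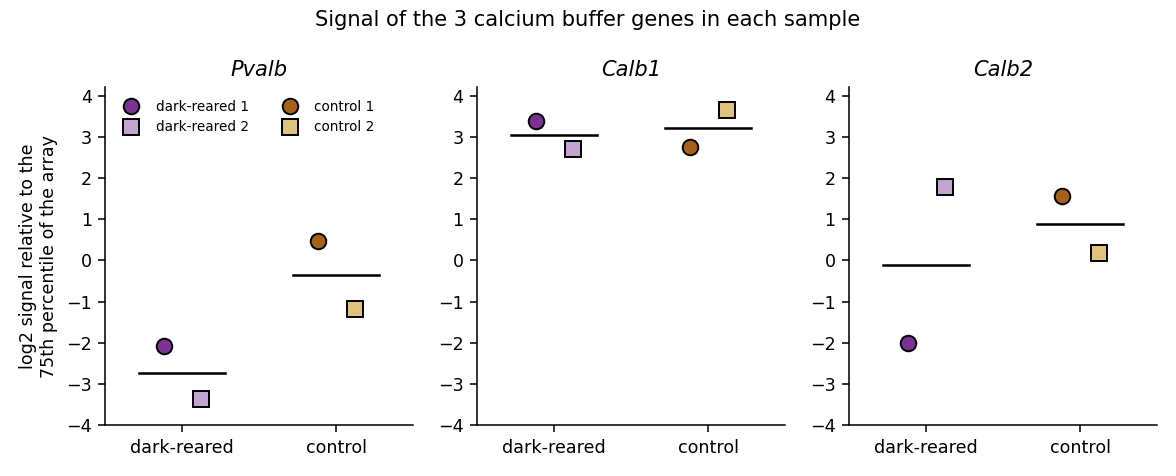
Log2 signal relative to the 75th percentile of the array (vertical axis) for Pvalb, Calb1 and Calb2, in dark-reared samples and in controls; each point is 1 sample and the bars are group means of 2. Pvalb has both dark-reared samples (-2.09 and -3.37) below both controls (0.47 and -1.19), while the groups overlap for Calb1 and for Calb2, where dark-reared 1 stands at -2.0.

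**Figure D2:**
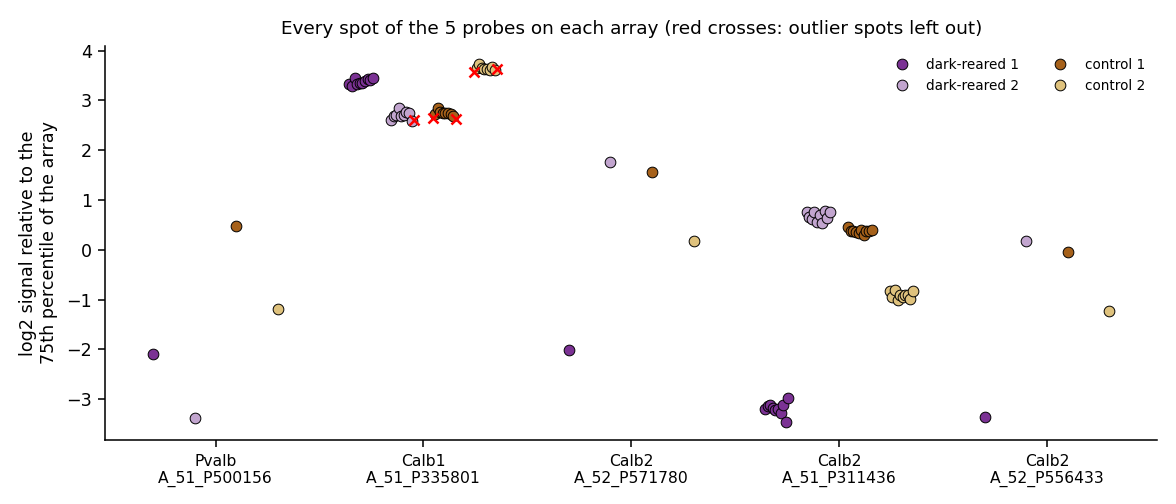
Log2 signal relative to the 75th percentile of the array (vertical axis) of every spot of the 5 probes, by array; probes printed 10 times show 10 points per array, and red crosses are outlier spots left out. On the probes printed 10 times the spread over spots is narrow beside most gaps between arrays, but dark-reared 2 and control 1 overlap for Calb1, and all 3 Calb2 probes have dark-reared 1 lowest; heights of different probes are not comparable.

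Against all genes tested, Pvalb and Calb2 were among the most variable and Calb1 was less so. The range over the 4 samples was 3.84 on the log2 scale for Pvalb, wider than for 99.72% of the genes, 3.77 for Calb2 (99.68%) and 0.95 for Calb1 (82.44%), where the median gene had a range of 0.42. Of the 3 genes, 0 were called by limma at a Benjamini-Hochberg adjusted p under 0.05 over all genes, where 0 of 21642 genes (0%) were called and 273 had an unadjusted p under 0.05. Pvalb alone of the 3 had groups that did not overlap, as had 9.58% of all genes toward lower values and 9.55% toward higher values in dark-reared samples. It was also alone in being at least 2-fold lower without overlap, which 168 genes (0.776%) were, while 92 (0.425%) were at least 2-fold higher. With the normexp setting, whose added units narrow the differences of dim genes, those counts were 15 and 5. Since the genes were chosen with these values known, nothing is read from their place among the others.

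Genes whose profile over the 4 arrays came nearest to each member were found by the root mean square distance between profiles centred on their own means, among 13523 other named genes well above background on all arrays. With 4 arrays a near match is easily found, and the samples and their tissue content are shared. Nearest to Pvalb were Stra6l, a gene of retinol uptake (distance 0.64 on the log2 scale), the T-cell receptor gene Cd3e (0.66), the troponin gene Tnnt1 (0.69) and the kallikrein gene Klk1b3 (0.69), all farther off than the nearest genes of Calb1 and Calb2. Stra6l was dim, at -4.30 and -4.61 in dark-reared samples, against -2.36 in control 1 and -3.96 in control 2. Klk1b3 was dim too (-3.80 and -3.71, against -1.38 and -3.33). Outside control 1 both lay near the lowest signals well above background. Tnnt1, which is expressed in thalamic relay neurons, had log2 signals of -1.44 and -1.53 in dark-reared samples, against 1.01 in control 1 and -1.26 in control 2. Nearest to Calb1 were Tagln, an actin-binding protein gene of smooth muscle (0.05), the collagen gene Col6a4 (0.06), Asb2 (0.06) and 1700030J22Rik (0.07). Nearest to Calb2 were AW551984 (0.16), Lhx9, a homeobox gene of the developing diencephalon (0.23), Cbln1, which encodes a synapse organizer (0.26), and Asb4 (0.29). Cbln1 had log2 signals of -0.84 in dark-reared 1 and 2.46 in dark-reared 2, against 2.32 in control 1 and 0.65 in control 2, which is the order of Calb2.

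Calb2 shared its low value in dark-reared 1 with markers of the sampled tissue. Of 15 tested markers of thalamic relay neurons, 9 had their lowest value in dark-reared 1 and 13 their highest in control 1. Of 9 tested hypothalamus markers these were 6 and 8. Between the groups, 14 relay markers were lower and 1 higher in dark-reared samples, with a median log2 difference of -0.60. Of the hypothalamus markers 8 were lower and 1 higher, with a median of -0.99. In each list 2 were lower without overlap (9.58% over all genes) and 0 were called by limma. The 2 relay markers without overlap, Tnnt1 among them, were also at least 2-fold lower (0.776% over all genes), as Pvalb was. Of the hypothalamus markers 0 were. Within the shared slide the list medians had the opposite sign, at 0.79 and 0.66. The mean log2 deviation of the 15 relay markers from the 4-array mean was -0.92 in dark-reared 1 and 0.26 in dark-reared 2, against 1.10 in control 1 and -0.43 in control 2. The 9 tested hypothalamus markers gave -1.90 and 0.48 in the dark-reared samples, against 1.53 and -0.11 in the controls. Calb2 gave -2.38 and 1.39, against 1.19 and -0.19. The summed signal of the relay markers, in units of the 75th percentile, ran from 29.2 to 79.8 in dark-reared samples and from 37.7 to 104.1 in controls, and that of the hypothalamus markers from 3.90 to 30.1 and from 15.7 to 52.3. Slc17a6, which loads glutamate into the vesicles of relay neurons, had log2 signals of -1.0 in dark-reared 1 and 3.43 in dark-reared 2, against 3.89 in control 1 and 1.64 in control 2. The peptide genes Oxt (-3.31 and 2.5, against 3.97 and 2.38) and Avp (-3.61 and 3.54, against 3.91 and 1.18) were likewise lowest in dark-reared 1. Of the relay list Synpo2 did not pass the filter. Of the hypothalamus list 8 did not: Otp, Sim1, Fezf1, Six6, Hmx2, Hmx3, Pmch and Agrp. The part of tissue content in the Calb2 values was not tested, and in tissue RNA fewer cells of a type and less RNA per cell cannot be told apart.

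Calb1 deviated with the same signs as markers of the striatum, a region next to the sampled tissue whose projection neurons are rich in calbindin. The 8 striatum markers, all tested and well above background on every array, had mean log2 deviations of 0.88 in dark-reared 1 and -0.87 in dark-reared 2, against -0.65 in control 1 and 0.64 in control 2. Calb1 deviated by 0.26 and -0.42, against -0.37 and 0.53. Of the 8 markers, 7 were lowest in dark-reared 2 and 1 in control 1, while 6 were highest in dark-reared 1 and 2 in control 2. Their summed signal ran from 112 to 352 in dark-reared samples and from 133 to 318 in controls. The dopamine receptor gene Drd1 had log2 signals of 2.73 and 1.35 in the dark-reared pair, against 1.17 and 2.54 in the control pair, and Drd2 0.34 and -1.38, against -1.08 and 0.35. The part of striatal tissue in the Calb1 values was not tested.

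Pvalb was lowest in dark-reared 2, where the relay and hypothalamus markers were lowest on average in dark-reared 1, but like them it was highest in control 1, and the part of tissue content in its values was not tested. Markers of GABA neurons and the reticular nucleus, the thalamic cells that carry parvalbumin, went both ways by gene. Their mean log2 deviations, which average over genes of opposite sign, were -0.11 and 0.17 in the dark-reared pair, against -0.16 and 0.11 in the control pair, where Pvalb had -0.54 and -1.83, against 2.02 and 0.35. Of 15 tested, 10 were higher and 5 lower in dark-reared samples. Without overlap 1 was lower and 2 were higher (9.58% and 9.55% over all genes), so nothing is read from these counts. limma called 0 of them, and the median difference was 0.07, against -0.01 over all genes. Gad1, which makes GABA, had a log2 difference of -0.05, its partner Gad2 of 0.07 and the vesicular GABA transporter gene Slc32a1 of 0.02. Six3, a homeobox gene of reticular neurons, stood at -2.28 and -2.33 in the dark-reared samples, with -1.62 and -1.91 in the controls, lower without overlap (log2 difference -0.54). Spp1 had a difference of -0.62 and Lhx6 of 0.49, both with overlap, and Dlx2, a homeobox gene of GABA lineages, of 0.47 without overlap. Cacna1i, the calcium channel gene of reticular neurons, did not pass the filter.

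Genes that are high in fast-spiking neurons mostly had lower values in dark-reared samples, none of them by as much as Pvalb. Of 17 tested, 14 were lower and 3 higher, 4 lower and 1 higher without overlap (9.58% and 9.55% over all genes), 0 were called, and the median difference was -0.30. In 12 the highest value was in control 1, the sample in which Pvalb was also highest, while the lowest was in dark-reared 2 in 7 and in dark-reared 1 in 6. The neurofilament gene Nefh had log2 signals of 1.20 and 2.40 in the dark-reared pair, against 3.6 and 1.91 in the control pair (difference -0.96). The vesicle protein gene Vamp1 had a difference of -0.84 and the fast potassium channel gene Kcnc2 of -0.81, both with overlap. Within the shared slide these 3 had the opposite sign, at 0.49, 0.22 and 0.48, while the median of the 17 kept its sign, at -0.11.

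Markers of other tissues that carry these proteins were set beside the genes. Skeletal muscle markers had a summed signal from 1.35 to 1.44 in dark-reared samples and from 1.41 to 1.54 in controls. Of 10 muscle markers 9 were tested, and the creatine kinase gene Ckm did not pass the filter. Of the 9, 3 were higher and 6 lower in dark-reared samples, with a median log2 difference of -0.12. Without overlap 0 were lower and 1 was higher (9.58% and 9.55% over all genes). Actn3 had a difference of -0.43 and Atp2a1 of -0.37. Of 12 cerebellum markers 7 were tested, and Gabra6, Cbln3, En1, Ppp1r17 and Neurod1 did not pass the filter. Of the 7 tested, 2 were higher and 5 lower in dark-reared samples. Their median difference was -0.34 (0.0055 without dark-reared 2), with Cbln1 at -0.67 and Slc1a6 at -0.47. Of 7 habenula markers 2 were tested, since Gpr151, Chrna3, Chrnb3 and Chrnb4 did not pass the filter and Tac2 had no named probe. The 2 tested, Nr4a2 and Pou4f1, had log2 differences of -0.95 and -0.23, lower without overlap (9.58% over all genes). Cortex and hippocampus markers were higher in 10 of 15 cases, with a median of 0.50, and 4 were higher without overlap (9.55% over all genes), among them Fezf2 (difference 1.37) and Tbr1 (1.09). The median was -0.35 without control 2 and 0.98 without control 1, so its direction rested on control 2. Their mean deviation was lowest in control 2, at -0.61. The part of these tissues in the values of the 3 genes was not tested.

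**Figure D3:**
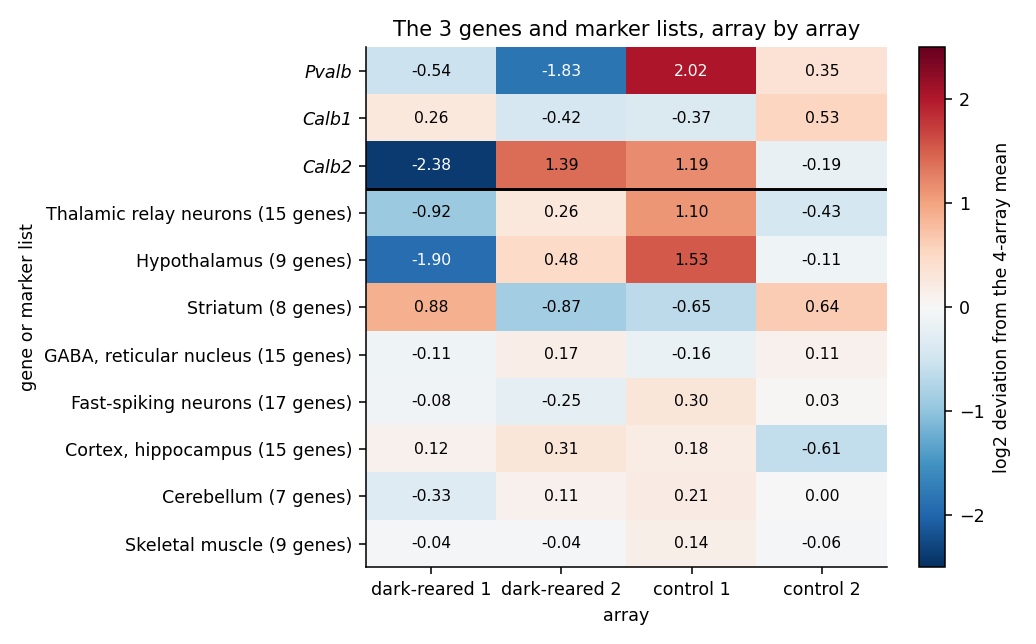
Log2 deviation from the 4-array mean (colour and printed number) of Pvalb, Calb1 and Calb2 and, below the line, the mean deviation of each marker list's tested genes, by array. Calb2 (-2.38) and the thalamus and hypothalamus lists (-0.92 and -1.90) are lowest in dark-reared 1, Calb1 has the signs of the striatum list, and Pvalb is lowest in dark-reared 2 (-1.83) and highest in control 1 (2.02).

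Other EF-hand proteins that buffer or sense calcium differed little between the groups. Of 14 such genes and S100 genes, 11 were tested, of which 5 were higher and 6 lower, and 0 were called by limma. Without overlap 2 were lower and 1 was higher (9.58% and 9.55% over all genes), 0 of them at least 2-fold (0.776% and 0.425%). Nothing is read from these counts. The median log2 difference of the 11 was -0.13. S100b, the astrocytic member, had log2 signals of 4.89 and 4.57 in the dark-reared pair, against 5.41 and 4.94 in the control pair (difference -0.44, without overlap). Necab1 (0.39), S100a10 (0.39) and Necab2 (0.24) had positive differences, with overlap. Secretagogin (Scgn), calbindin-D9k (S100g) and oncomodulin (Ocm), the last a parvalbumin of the inner ear, did not pass the filter.

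Neuronal calcium sensors, which pass calcium signals to channels and enzymes, went both ways by gene. Of 20 such genes 15 were tested, of which 7 were higher and 8 lower, 0 were called, and the median difference was -0.06. The groups overlapped for all 15, where 9.58% of all genes were lower and 9.55% higher without overlap. With so few genes, nothing is read from that. The largest differences were those of Cabp7 (-0.67), the potassium channel partners Kcnip4 (-0.38) and Kcnip1 (-0.24), and Hpcal1 (-0.26). Cabp7 was dim, and its -5.05 in dark-reared 1 was close to the lowest signal well above background on that array. Hpcal1 was lowest in dark-reared 1, at 1.56, with 2.80 in dark-reared 2, against 2.53 and 2.34 in controls. In 8 of the 15 genes the lowest value was in dark-reared 1, as for Calb2.

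Calmodulin, its kinases and its phosphatase calcineurin gave 6 higher and 14 lower genes of 20, with a median of -0.04 and 0 called. Without overlap 1 was lower and 0 were higher (9.58% and 9.55% over all genes). Camk2b, a subunit of the synaptic calmodulin kinase, had a difference of 0.40, Pcp4, a small calmodulin-binding protein gene, of -0.40, Camk2d of -0.22 and Camkk1, an upstream kinase gene, of -0.29. Camkk1 was the gene without overlap, at 2.72 and 2.45 in the dark-reared pair, against 2.95 and 2.80 in the control pair. In 12 of the 20 the highest value was in dark-reared 1, and in 10 the lowest was in dark-reared 2, where Calb1 was lowest too.

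Pumps, exchangers and store channels, which clear or release calcium, gave 9 higher and 11 lower genes of 20 tested, with a median of -0.03 and 0 called. Without overlap 0 were lower and 2 higher (9.58% and 9.55% over all genes). Atp2a3, a pump gene of the endoplasmic reticulum, had a difference of -0.60, the exchanger genes Slc24a2 of -0.46 and Slc8a1 of 0.19, and the store channel gene Itpr2 of -0.41, all with overlap. Over the 4 calcium lists 66 genes were tested and 0 were at least 2-fold apart without overlap, where the shares over all genes were 0.776% toward lower and 0.425% toward higher values, so nothing is read from that count. Without dark-reared 2 the medians of the buffer, calmodulin and pump lists turned positive, at 0.08, 0.22 and 0.09.

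**Figure D4:**
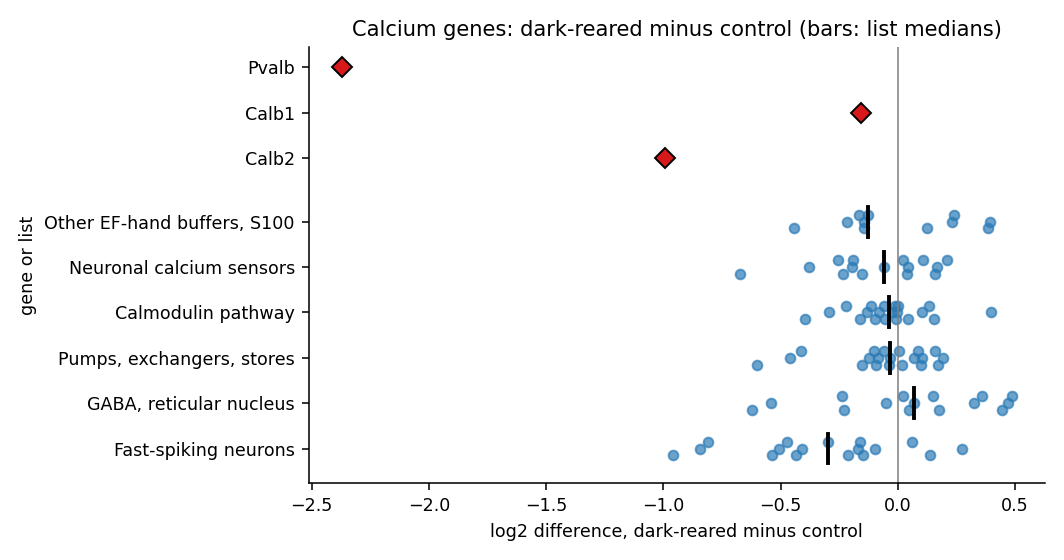
Log2 difference, dark-reared minus control (horizontal axis), of Pvalb, Calb1 and Calb2 (red diamonds) and of the tested genes of 6 lists (points; black bars are list medians). Pvalb at -2.37 lies below every point of these lists, whose lowest is Nefh at -0.96, and the list medians run from -0.30 to 0.07. The relay and hypothalamus lists are not shown. In the latter Oxt (-3.58) and Avp (-2.58) are lower than Pvalb.

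**Figure D5:**
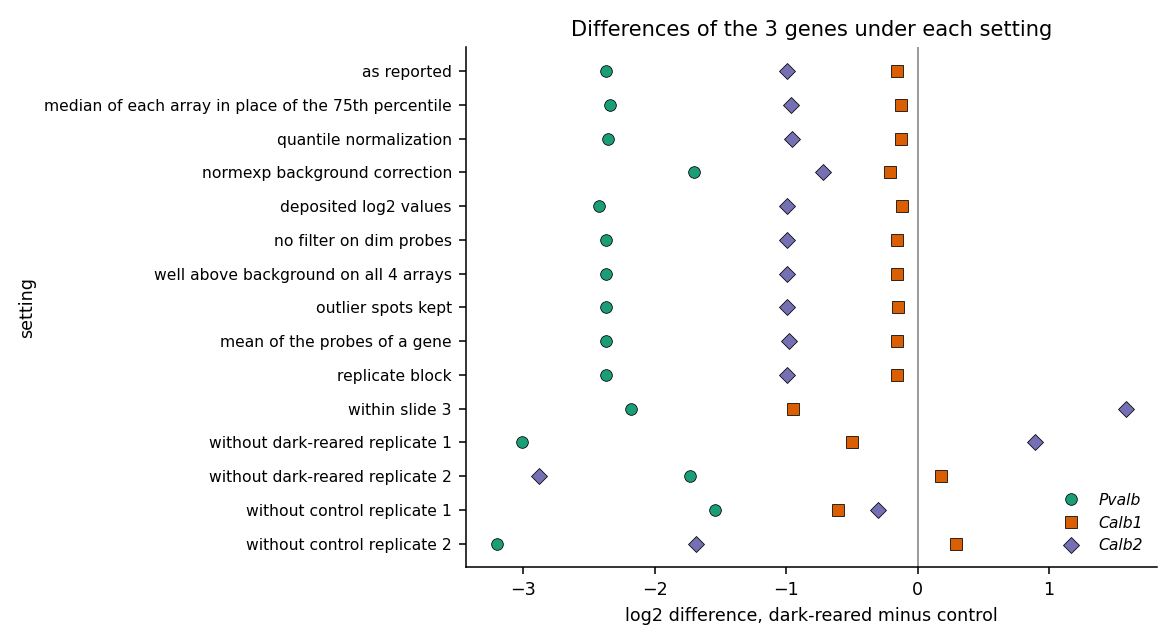
Log2 difference, dark-reared minus control (horizontal axis), of the 3 genes as reported and under each other setting (rows). Pvalb stays below 0 in every row, from -3.20 to -1.54. Since its groups do not overlap, its sign could not turn in rows that leave samples out. Calb1 (-0.95 to 0.29) and Calb2 (-2.88 to 1.58) take both signs, depending on which samples are used.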

How the data were processed

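The deposited scanner tables hold intensity per spot. Per the file headers, version 10.7.3.1 of Agilent's Feature Extraction wrote them (the submitters' processing notes give 10.7), with the processed signal background-subtracted and detrended within an array. A second deposited table has the authors' own log2 value of every probe, with a median of 6.84 on each array. How they normalized it is not given here by header or label, and it served as an alternative.

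Of 43379 non-control spots, those called outliers (79 to 103 an array) were left out. The log2 processed signals of a probe were averaged and each array's 75th percentile subtracted. RefSeq accessions named 26910 probes through a table of GRCm38.p6 symbols; the array annotation refers to mm9. A probe was kept if both arrays of either group had it well above background (28439 probes), and the brightest stood for a gene. This gave 21642 genes, 91.9% of them above background on all 4 arrays. The groups, taken from the labels, were set against each other in limma 3.58.1 under R 4.3.3 (two-sided, Benjamini-Hochberg, 0.05), which was tested on simulated data. Named genes are, besides the members and 4 GABA and glutamate genes, up to 4 per calcium, GABA or fast-spiking list and 2 per other list with the largest absolute difference among those above background on all arrays, and the 4 nearest profiles per member. 1 gene that this rule names is not reported here. Members and lists were chosen with earlier results of these data known. The number of arrays limits the precision, and p-values measure the spread between these samples only. Alternatives were other scalings, background, filter, outlier and probe rules, a block for the replicate number, and leaving out 1 array at a time.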

Additional observations from a re-analysis of the deposited data

How the results depend on the processing

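Pvalb kept its sign under all 14 alternatives, but for many of them this was fixed in advance. With both dark-reared values below both controls, leaving out an array or keeping to the shared slide cannot turn the sign. As Pvalb has 1 probe of 1 spot, the filter, outlier and probe rules left its difference at -2.37. With each array left out the log2 difference of Pvalb ran from -3.20 to -1.54, that of Calb1 from -0.61 to 0.29 and that of Calb2 from -2.88 to 0.89. Within the shared slide Calb1 was at -0.95 and Calb2 at 1.58. Scaling by the median or by quantiles, the deposited values, the filters, outlier spots and the mean of a gene's probes moved no member by more than the spread between replicates, nor did normexp (-1.70, -0.21 and -0.72 for Pvalb, Calb1 and Calb2). Normexp ran on median spot signals, in place of the mean signals first planned, which are not among the columns. It added 50 units to each signal, which narrows log2 differences of dim probes, and quantile normalization followed.

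With the replicate number as a block the differences were -2.37, -0.16 and -0.99 as without it, and limma called 0 genes. Over genes, dark-reared 1 minus dark-reared 2 correlated at -0.16 with control 1 minus control 2. Such a correlation also carries differences in tissue content, so it cannot tell whether same-numbered samples were matched. Those numbered 2 shared a slide. The crossed pairing, chosen after seeing the data, also gave 0 calls, and 439 genes with an unadjusted p under 0.05, where the fit without a block had 273. limma called 0 genes under all 15 alternatives (the slide alone has no test), with 157 to 1196 at an unadjusted p under 0.05.

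The 260 genes at least 2-fold apart without overlap became 20 with normexp, 818 without the filter, 80 with the filter on all 4 arrays and 1377 within the shared slide, and 532 to 891 with an array left out, where fewer samples make overlap rarer. Of 182 list medians under alternatives, 22 moved by more than the spread between replicates and 23 took the other sign. The weak Pvalb signal, at 1 spot per array, limits how well the size of its difference is known.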
